A study of Mus musculus with 9 samples.

Results

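The cells of the cortical vessel wall were followed here through 36 genes taken by symbol from a deposited table of 54532 genes. They are genes of the blood-brain barrier, the endothelium, the pericytes and the vascular smooth muscle, and all 36 were found in the table. The RNA came from brain cortex of 3 male mice each of 3 inbred strains, aged 8 to 12 weeks, with no treatment named in the labels. B6 (C57BL6/J) is a classical inbred strain from which the reference genome was read, C3H (C3H/HeJ) is also classical, and WSB (WSB/EiJ) descends from wild-caught mice. The study compared the strains because they differ in the size of the infarct after an arterial occlusion, and the question asked here is whether the resting cortex differed in transcripts of its vessel wall. The samples were whole cortex with every cell type in it, so fewer vessel cells and less RNA per vessel cell cannot be told apart in any value below.

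Capillaries of the brain are lined by endothelial cells sealed to each other by tight junctions, which force solutes to cross the cells through transporters and so make the blood-brain barrier. Pericytes sit on the outer face of the capillaries in the same basement membrane, and their contact, kept by PDGF signalling, helps maintain the barrier. Smooth muscle cells ring the arteries and arterioles and set their diameter through a contractile apparatus of actin and myosin.

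Levels are given in FPKM, the fragments on a gene per kilobase of its length, scaled by the authors with a factor for each library. Rescaling the deposited values by median of ratios gave the same factor, 1.009, in every mouse, so they were already level by that measure. Between 16317439 and 21562429 reads lay on genes in a mouse. The library of C3H replicate 2 stood apart, since the short gene *Gm23935* reached 59985 FPKM there and at most 10296 FPKM was reached by any gene in the other 8 mice, and the calls among the 36 genes that involve C3H are therefore also given without it. Across genes of at least 1 FPKM, transcripts richer in G and C had higher fold changes of C3H against B6 (Spearman's rho of GC content and fold change 0.49 over 12940 genes). The same rho was 0.11 for WSB against B6 and -0.40 for WSB against C3H. Without C3H replicate 2 the values for the comparisons with C3H were 0.56 and -0.48. These values describe 5 or 6 libraries each and have no test. Genes are not independent replicates.

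All 36 genes had counted reads in each of the 9 mice, so reads on markers of endothelium, pericytes and smooth muscle were found in every cortex sample. *Bsg*, which encodes the membrane glycoprotein basigin and is also made by many other cells, was the most abundant on the FPKM scale, from 214 to 268 FPKM. The pericyte gene *Vtn* (20.6 to 34.9 FPKM), the endothelial gene *Itm2a* (16.2 to 32.0 FPKM), the glucose transporter gene *Slc2a1* (18.0 to 25.0 FPKM) and the claudin gene *Cldn5* (13.5 to 22.3 FPKM) came next. *Tagln* was at the other end with 0.0290 to 0.260 FPKM, which was as little as 1 read in a mouse. *Foxq1* was also low, at 0.136 to 0.323 FPKM and at least 12 reads.

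**Figure D1:**
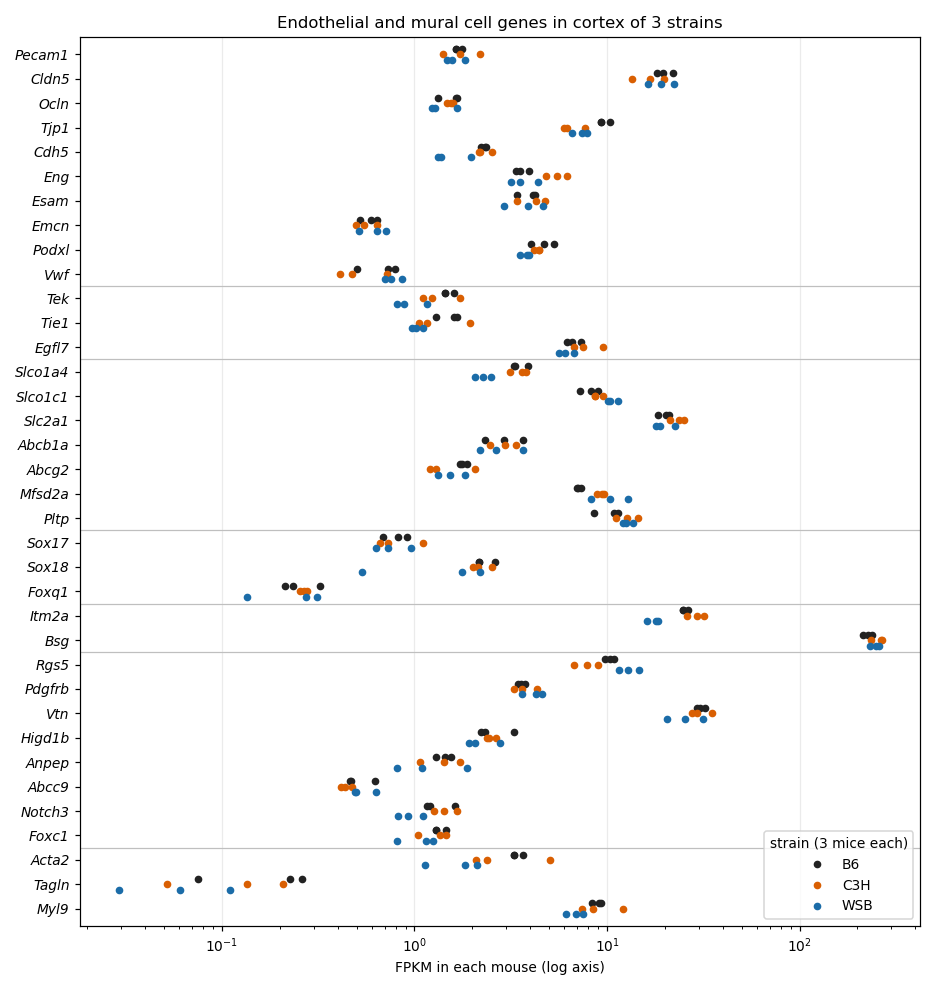
The 36 genes in the 9 mice, with each dot 1 mouse, FPKM on a log axis, colours for the 3 strains, and grey lines between groups of genes with different roles. Levels ran from under 0.1 FPKM (*Tagln*) to over 200 FPKM (*Bsg*). The dots of WSB and B6 did not overlap for 15 genes, those of C3H and B6 for 5, and those of WSB and C3H for 9.

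Of the 36 genes, 7 passed the test in at least 1 comparison of strains. WSB against B6 gave 3 genes that passed an adjusted p of 0.05, and all 3 were lower in WSB: *Itm2a*, the organic anion transporter gene *Slco1a4* and the smooth muscle actin gene *Acta2*. C3H against B6 gave *Eng* and *Mfsd2a* as higher in C3H and *Tjp1* as lower. WSB against C3H gave *Rgs5* as higher in WSB, and *Itm2a* and *Slco1a4* as lower. Only *Itm2a* kept its call whichever mouse was left out and under all 11 other settings tried, in both comparisons that involve WSB. Of those settings, rescaling by median of ratios could hardly change a call, since its factor was 1.009 in every mouse. The tests used limma on log2(FPKM + 0.1) with Benjamini-Hochberg adjustment over all genes tested, and the comparisons share mice, so they are not independent of each other.

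In WSB against B6, the 3 calls among 36 genes (8.33%) stand beside 5.90% of 20746 genes tested, of which 3.09% were lower and 2.81% higher. The values of the 3 mice of each strain did not overlap for 15 genes (41.7%), 4 of them higher in WSB and 11 lower, where 26.0% of all genes did not overlap (13.0% higher and 13.1% lower). The fold change was below 0 for 26 of the 36 genes (72.2%) and for 49.7% of all genes, and the median log2 fold change was -0.14 over the 36 genes and 0.00 over all genes. C3H against B6 had as many calls (8.33%), where 4.64% of 20602 genes were called, 2.38% as higher and 2.26% as lower. Here only 5 genes did not overlap (13.9%), where 28.9% of all genes did not. In this comparison 20 of the 36 genes (55.6%) and 50.4% of all genes were below 0, with a median of -0.01 over the 36.

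In WSB against C3H, 35 genes were tested, because *Tagln* fell under the limit of a mean of 0.1 FPKM. The 3 calls (8.57%) stand beside 5.74% of 20607 genes, 2.61% as higher and 3.13% as lower. No overlap was seen for 9 genes (25.7%) and for 28.6% of all genes. Of the 35 genes, 24 (68.6%) were below 0 beside 48.9% of all genes, and the median was -0.15. The share of genes called was thus near that of all genes in each comparison, while the share lying wholly below B6 in WSB, 11 genes or 30.6%, was above the 13.1% of all genes.

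**Figure D2:**
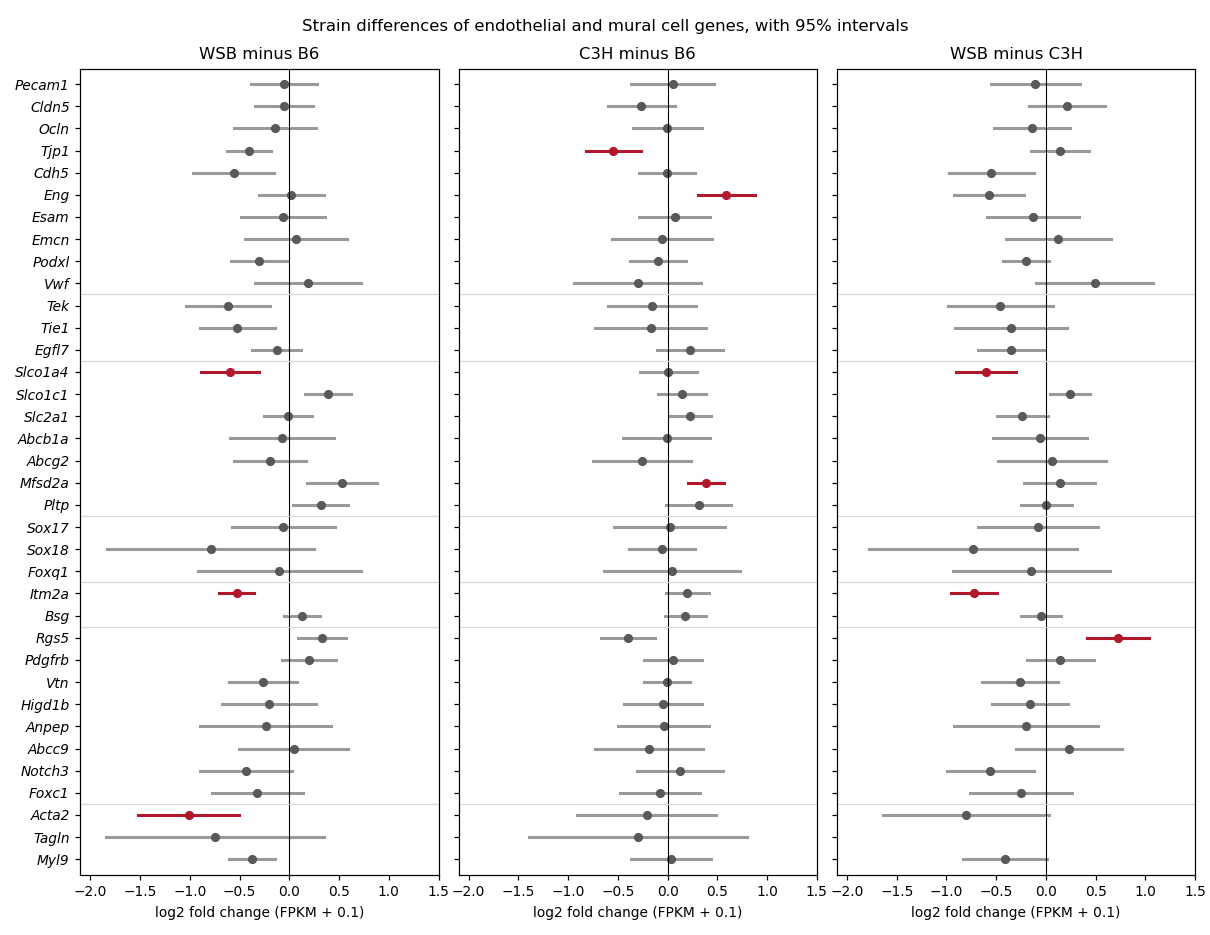
The log2 fold change on the FPKM + 0.1 scale of each gene in the 3 comparisons, with 95% confidence intervals from limma and in red the genes with an adjusted p under 0.05. In each panel 3 genes are red, *Itm2a* and *Slco1a4* appear in red on the left of 0 in both panels with WSB, and *Tagln* has no value against C3H.

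Among the 10 junction and surface proteins of the endothelium, 2 genes passed the test, both in C3H against B6 and in opposite directions. *Eng* encodes endoglin, a co-receptor for ligands of the TGF-beta family on endothelial cells, and lies on chromosome 2 from 32646595 to 32682669 (GRCm38, plus strand). *Eng* stood at 3.53, 3.38 and 3.94 FPKM in the B6 mice, at 6.21, 4.84 and 5.49 FPKM in C3H, and at 3.55, 3.17 and 4.37 FPKM in WSB. Every C3H mouse was above every mouse of the other strains, while B6 and WSB overlapped. The log2 fold change of C3H against B6 was 0.59 ± 0.12 (SE, n = 3 mice per strain, limma adjusted p = 0.0405). Against C3H, WSB was at -0.57 ± 0.15 and missed the threshold (limma adjusted p = 0.0760). *Eng* was still called with the GC trend removed (0.45, limma adjusted p = 0.0452) and without C3H replicate 2 (0.68). The call was lost with no filter (limma adjusted p = 0.0589), with eBayes without a trend (limma adjusted p = 0.0907) and when any other mouse was left out. Exons of *Eng* share 61 bases with *Fpgs* on the opposite strand, and the sources used here do not say whether reads were counted by strand.

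*Tjp1*, the gene of the scaffold protein ZO-1 that ties tight junctions to actin and that many other cells also make, went the other way. It had 10.4, 9.28 and 9.29 FPKM in B6, 5.98, 7.71 and 6.16 FPKM in C3H, and 7.86, 6.57 and 7.39 FPKM in WSB. All mice of C3H and WSB lay below all B6 mice and overlapped with each other. On the log2 scale *Tjp1* differed by -0.54 ± 0.12 in C3H against B6 (limma adjusted p = 0.0456) and by -0.40 ± 0.10 in WSB against B6 (limma adjusted p = 0.0555). The call in C3H was lost with no filter (limma adjusted p = 0.0658), total-read rescaling (0.0526) or eBayes without a trend (0.114), and when any mouse but C3H replicate 2 was left out. In WSB a call appeared with a filter of 1 FPKM, with voom weights or with the GC trend removed.

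The junction genes that are more particular to the barrier did not pass. *Cldn5*, the main claudin of its tight junctions, had 19.6, 21.9 and 18.3 FPKM in B6, 19.8, 13.5 and 16.7 in C3H, and 19.2, 16.3 and 22.3 in WSB. Its 95% interval for WSB minus B6 on the log2 scale ran from -0.35 to 0.24 and that for C3H minus B6 from -0.60 to 0.07. For *Ocln*, which encodes the tight junction protein occludin, the intervals were -0.56 to 0.26 and -0.35 to 0.34. The adherens junction gene *Cdh5* (VE-cadherin) had 2.33, 2.21 and 2.36 FPKM in B6, 2.53, 2.19 and 2.16 in C3H, and 1.97, 1.32 and 1.37 in WSB. All WSB mice lay below all mice of both other strains, and the differences of -0.56 ± 0.17 against B6 and -0.55 ± 0.18 against C3H on the log2 scale did not pass (limma adjusted p = 0.122 and 0.131). *Podxl*, a sialomucin of the luminal surface, was also lowest in WSB in all 3 mice (3.53 to 3.94 FPKM, with 4.05 to 5.33 FPKM in B6 and 4.16 to 4.45 FPKM in C3H) and did not pass (limma adjusted p = 0.224 against B6). For the adhesion molecule genes *Pecam1* and *Esam*, the sialomucin gene *Emcn* and *Vwf*, the gene of von Willebrand factor, the strains overlapped in every comparison.

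The receptor genes *Tek* and *Tie1* encode the tyrosine kinases of the angiopoietin pathway, and *Egfl7* a protein that endothelial cells secrete into the matrix. *Tek* had 1.45, 1.60 and 1.44 FPKM in B6, 1.23, 1.72 and 1.10 FPKM in C3H, and 1.16, 0.809 and 0.883 FPKM in WSB. *Tie1* had 1.61, 1.30 and 1.67 FPKM in B6, 1.93, 1.06 and 1.16 FPKM in C3H, and 1.02, 1.10 and 0.969 FPKM in WSB. Both genes lay lower in all WSB mice than in all B6 mice, while C3H overlapped with both strains. The log2 fold changes of WSB against B6, -0.62 ± 0.18 for *Tek* and -0.52 ± 0.16 for *Tie1*, missed the threshold (limma adjusted p = 0.103 and 0.122). *Egfl7* stayed between 5.66 and 9.56 FPKM with overlap in all comparisons.

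The 7 transporter and lipid genes did not move together. *Slco1a4* encodes an organic anion transporter of the brain endothelium and lies on chromosome 6 from 141805440 to 141856199 (GRCm38, minus strand). It stood at 3.87, 3.32 and 3.28 FPKM in B6, at 3.62, 3.77 and 3.14 FPKM in C3H, and at 2.26, 2.06 and 2.50 FPKM in WSB. Every WSB mouse was below every mouse of B6 and C3H, which overlapped with each other. WSB differed by -0.60 ± 0.12 on the log2 scale from B6 (limma adjusted p = 0.0358) and by -0.61 ± 0.13 from C3H (limma adjusted p = 0.0403). The call against B6 was lost whichever of the 6 mice was left out, with adjusted p from limma of 0.0552 to 0.103 and log2 fold changes from -0.66 to -0.52, and so was that against C3H, with 0.0604 to 0.149. Both calls were also lost with no filter and with eBayes without a trend, and that against C3H with total-read rescaling (limma adjusted p = 0.0525 to 0.0632). The transcript shares 89.1% of 2150 aligned bases with *Slco1a5*, whose level was at most 0.146 FPKM in any mouse.

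*Slco1c1*, which lies near *Slco1a4* on chromosome 6 and encodes a thyroid hormone carrier, was highest in WSB. Its values were 8.94, 8.24 and 7.25 FPKM in B6, 8.68, 9.56 and 8.70 FPKM in C3H, and 10.4, 10.2 and 11.5 FPKM in WSB. The WSB mice lay above all mice of both other strains, but the log2 fold change of 0.39 ± 0.10 against B6 missed the threshold (limma adjusted p = 0.0737). It passed with all 9 mice in 1 fit, with voom weights and with the GC trend removed.

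*Mfsd2a* encodes the transporter of lysophosphatidylcholine that brings docosahexaenoic acid across the barrier. It had 7.35, 6.95 and 7.05 FPKM in B6, 9.67, 8.88 and 9.46 FPKM in C3H, and 10.3, 12.8 and 8.25 FPKM in WSB. All C3H and WSB mice were above all B6 mice, with a wider spread in WSB (SD 2.27 FPKM) than in B6 (SD 0.205 FPKM) or C3H (SD 0.411 FPKM). C3H was 0.39 ± 0.08 above B6 on the log2 scale (limma adjusted p = 0.0393) and WSB 0.53 ± 0.15 above B6 (limma adjusted p = 0.0993). With the GC trend removed the value for C3H was 0.28 and no longer passed (limma adjusted p = 0.0694), and leaving out any mouse but C3H replicate 2 ended the call as well. It was also lost with all 9 mice in 1 fit (limma adjusted p = 0.116), with voom weights (0.0599) and with eBayes without a trend (0.0979).

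The glucose transporter gene *Slc2a1* had 18.4, 21.1 and 20.3 FPKM in B6, 23.7, 21.2 and 25.0 in C3H, and 18.0, 22.7 and 18.8 in WSB. Its 95% intervals on the log2 scale were -0.26 to 0.23 for WSB minus B6 and 0.01 to 0.44 for C3H minus B6 (limma adjusted p = 0.189). The drug efflux pump genes *Abcb1a* (P-glycoprotein) and *Abcg2* overlapped between all strains, at 2.20 to 3.66 FPKM and 1.20 to 2.07 FPKM. *Pltp*, a phospholipid transfer protein gene, was higher in all WSB mice (12.1 to 13.7 FPKM) than in the B6 mice (8.59 to 11.4 FPKM) without passing (limma adjusted p = 0.189). Of its exonic bases, 19.3% are shared with *Ctsa* on the opposite strand.

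*Itm2a*, a gene of a type II membrane protein enriched in brain endothelium, gave the firmest difference of the 36 genes. It lies on chromosome X from 107397099 to 107403376 (GRCm38, minus strand), with 6 exons in a transcript of 1744 bases. *Itm2a* had 24.8, 26.4 and 24.8 FPKM in B6, 32.0, 29.5 and 25.9 FPKM in C3H, and 18.4, 16.2 and 17.9 FPKM in WSB. Every WSB mouse was below every other mouse, and B6 and C3H overlapped. In WSB the log2 fold change was -0.53 ± 0.07 against B6 (limma adjusted p = 0.00748) and -0.73 ± 0.10 against C3H (limma adjusted p = 0.00722). With any mouse left out, the values stayed between -0.57 and -0.47 against B6 and between -0.81 and -0.66 against C3H, and the highest adjusted p from limma was 0.0433. At least 489 reads lay on the gene in each mouse, and a search of the other transcripts found no similar one. *Bsg*, the second gene of this kind, had 226 ± 11.8 FPKM in B6, 256 ± 18.3 FPKM in C3H and 247 ± 13.3 FPKM in WSB (SD, n = 3 each), with overlap in all comparisons.

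**Figure D3:**
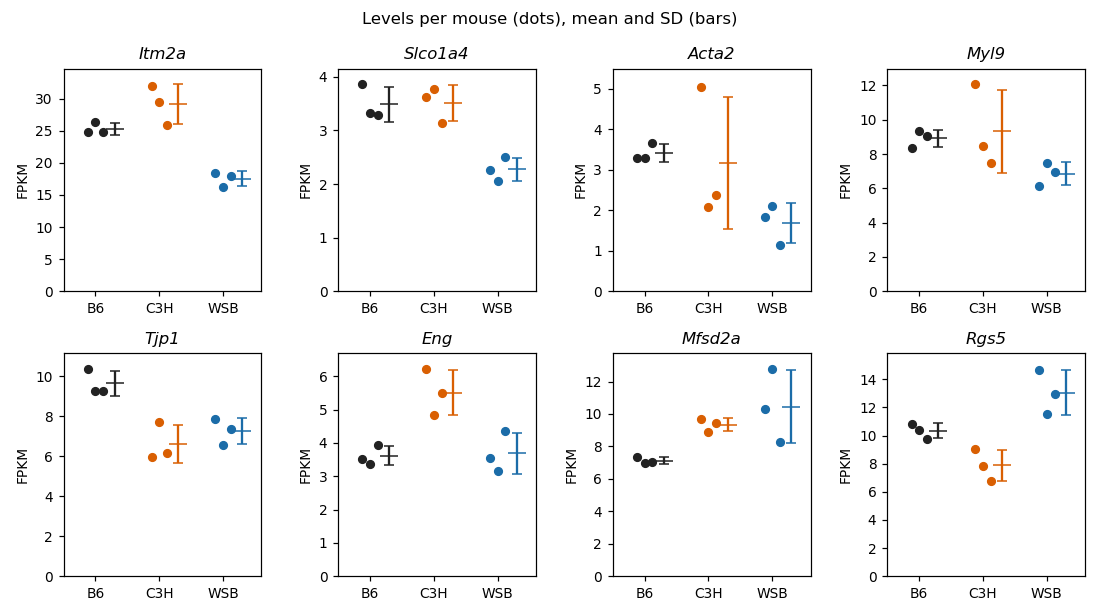
The 7 genes that passed in a comparison, and *Myl9*, in FPKM per mouse (dots), with the mean and SD of each strain (bars) on axes that start at 0. WSB was lowest in all 3 mice for *Itm2a*, from 16.2 to 18.4 FPKM, and for *Slco1a4*, C3H was highest for *Eng*, and for *Acta2* and *Myl9* 1 C3H mouse stood above the other mice.

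No endothelial transcription factor gene passed in any comparison of limma, nor had any of the 3 an unadjusted p under 0.05. The SRY-box genes *Sox17* and *Sox18* act in endothelial differentiation, and *Foxq1* is a forkhead gene enriched in brain endothelium. *Sox18* had 2.17, 2.17 and 2.61 FPKM in B6, 2.02, 2.13 and 2.51 FPKM in C3H, and 2.19, 0.535 and 1.76 FPKM in WSB. The low value in WSB replicate 2 rests on 15 reads and brought the SD in WSB to 0.858 FPKM. WSB replicate 1 lay within the range of both other strains, and the strains overlapped. *Foxq1* also overlapped, and 66.1% of its exonic bases are shared with *A530084C06Rik* on the opposite strand.

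Of the 8 pericyte genes, *Rgs5* was the one that passed, and it differed between WSB and C3H. *Rgs5* encodes a regulator of G protein signalling that is among the most abundant transcripts of pericytes, and lies on chromosome 1 from 169655501 to 169695813 (GRCm38, plus strand). It had 10.8, 10.4 and 9.78 FPKM in B6, 9.01, 7.86 and 6.76 FPKM in C3H, and 14.7, 11.5 and 12.9 FPKM in WSB. The strains did not overlap at all, with C3H lowest, B6 between and WSB highest. Between WSB and C3H the log2 fold change was 0.72 ± 0.13 (limma adjusted p = 0.0233). Against B6 it was 0.33 ± 0.10 in WSB (limma adjusted p = 0.121) and -0.40 ± 0.12 in C3H (limma adjusted p = 0.104), and neither passed. The call was kept without C3H replicate 2 and lost without WSB replicate 1, WSB replicate 3 or C3H replicate 3 (limma adjusted p = 0.0845, 0.0757 and 0.0766). It was also lost with eBayes without a trend (limma adjusted p = 0.0710) and with the GC trend removed (0.49, limma adjusted p = 0.0791), and the transcript's GC content of 41.1% is among the lower ones of the 36 genes.

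None of the other 7 pericyte genes passed in any comparison of limma. *Pdgfrb*, the receptor through which endothelial PDGF holds pericytes to the capillary, had 3.76, 3.56 and 3.46 FPKM in B6, 4.35, 3.29 and 3.63 in C3H, and 4.28, 3.61 and 4.60 in WSB. Its 95% interval on the log2 scale was -0.07 to 0.47 for WSB minus B6, -0.24 to 0.35 for C3H minus B6, and -0.19 to 0.48 for WSB minus C3H. *Vtn*, which encodes the matrix protein vitronectin, *Higd1b* and *Anpep*, which encodes aminopeptidase N, stayed between 20.6 and 34.9, 1.91 and 3.30, and 0.810 and 1.88 FPKM. The forkhead gene *Foxc1* was lower in all WSB mice (0.810 to 1.26 FPKM) than in all B6 mice (1.29 to 1.47 FPKM). It did not pass (limma adjusted p = 0.418). *Abcc9*, a subunit of a potassium channel of mural cells, had 0.627, 0.461 and 0.471 FPKM in B6, 0.475, 0.413 and 0.437 in C3H, and 0.496, 0.628 and 0.490 in WSB. All WSB mice lay above all C3H mice, as for *Rgs5*, with a log2 fold change of 0.23 ± 0.23 that did not pass (limma adjusted p = 0.570). *Notch3*, the Notch receptor of mural cells, had 1.62, 1.21 and 1.17 FPKM in B6, 1.42, 1.26 and 1.67 in C3H, and 0.822, 1.11 and 0.926 in WSB. All WSB mice were below all others, and the log2 fold changes of -0.44 ± 0.20 against B6 and -0.56 ± 0.19 against C3H did not pass (limma adjusted p = 0.268 and 0.131).

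The 3 smooth muscle genes all had fold changes below 0 in WSB against B6, and *Acta2* passed. *Acta2* encodes the alpha actin of smooth muscle and lies on chromosome 19 from 34241090 to 34255336 (GRCm38, minus strand). It had 3.29, 3.28 and 3.66 FPKM in B6, 5.04, 2.09 and 2.37 FPKM in C3H, and 1.82, 2.11 and 1.14 FPKM in WSB. WSB lay below B6 in all mice, while C3H held both the highest mouse and values near those of WSB. The log2 fold change of WSB against B6 was -1.01 ± 0.22 (limma adjusted p = 0.0393), the largest in size of the 36 genes. It did not pass with all 9 mice in 1 fit (limma adjusted p = 0.0954), with no filter (limma adjusted p = 0.0625), with eBayes without a trend (limma adjusted p = 0.0856) or without any 1 of the B6 mice or WSB replicate 1 (limma adjusted p = 0.0809 to 0.128). The fewest reads on *Acta2* in a mouse were 37, and *Acta1*, which shares 85.6% of 1135 aligned bases, was not called (6.51 to 8.16 FPKM in B6 and 7.86 to 10.2 FPKM in WSB).

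*Myl9*, the regulatory light chain of smooth muscle myosin, had 8.36, 9.33 and 9.05 FPKM in B6, 12.1, 8.44 and 7.45 FPKM in C3H, and 6.16, 7.50 and 6.93 FPKM in WSB. As with *Acta2*, all WSB mice were below all B6 mice and C3H replicate 1 was the highest of the 9. The log2 fold change of -0.38 ± 0.10 for WSB against B6 missed the threshold (limma adjusted p = 0.0750) and passed with the GC trend removed. *Tagln*, which encodes the actin-binding protein transgelin, had 0.225, 0.0747 and 0.260 FPKM in B6 and 0.0605, 0.0290 and 0.110 FPKM in WSB, and a difference was not detectable at this depth. Of the exonic bases of *Tagln*, 62.4% are shared with *Gm48529* and 5.43% with *Pcsk7*, both on the opposite strand, so its few reads need not be its own.

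The start regions of *Acta2* and *Myl9* are shown because these contractile genes had their lowest values in WSB, and because smooth muscle genes are known to be driven by serum response factor through the CArG box, 10 bases with A or T in the middle. The sequences are the RefSeq reference of B6 (GRCm38.p6), 5′ to 3′ along the gene, ending before the first base of the gene in the deposited table, with CArG boxes and boxes with 1 G or C in their middle in capitals. They lie at chr19:34255374-34255623 on the minus strand for *Acta2* and at chr2:156775214-156775419 on the plus strand for *Myl9*, whose RefSeq start lies 44 bases past the end of the sequence shown.
Acta2: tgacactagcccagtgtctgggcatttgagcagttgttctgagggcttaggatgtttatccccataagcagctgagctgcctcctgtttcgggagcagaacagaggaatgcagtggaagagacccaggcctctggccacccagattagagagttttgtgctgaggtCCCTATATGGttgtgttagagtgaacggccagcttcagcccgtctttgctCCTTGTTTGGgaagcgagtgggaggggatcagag
Myl9: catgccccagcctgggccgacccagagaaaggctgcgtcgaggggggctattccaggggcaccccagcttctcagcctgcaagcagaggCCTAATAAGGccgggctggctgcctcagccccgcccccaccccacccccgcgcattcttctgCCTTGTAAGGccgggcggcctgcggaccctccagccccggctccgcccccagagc

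The pattern of a CArG box is the same on both strands, though a given box need not read the same on each. A CArG box was in 1.47% of the 32851 windows of 250 bases before a RefSeq start. Among 29 windows of 24 of the 36 genes it was only in *Myl9*, where it begins 161 bases before that start. No window was available for *Tagln*. A box with 1 G or C in its middle was in 7.24% of all windows and in 6 of the 29, those of *Acta2* (beginning 84 and 34 bases before the RefSeq start), *Myl9* (99 bases before it), *Egfl7*, *Eng*, *Ocln* and *Slco1a4*. The ETS core GGAA, the site of endothelial ETS factors, was counted on both strands and was in 93.4% of all windows and in 26 of the 29. These matches are a description of the B6 reference, and the sequence of WSB or C3H at these windows was not analysed here.

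The mice of a strain did not vary evenly. C3H replicate 1 had the highest value of its strain in 20 of the 36 genes, among them *Pecam1*, *Cldn5*, *Eng*, *Tie1*, *Egfl7*, *Vtn*, *Pdgfrb*, *Acta2* and *Myl9*. WSB replicate 2 had the lowest of its strain in 23 genes, with a median log2 deviation of -0.14 from the mean of its strain. In B6 the mice shared the highest values more evenly, with 15, 12 and 9 genes.

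Markers of other cells in the cortex were summed per mouse to set beside these values, and none of the markers was at 0 in any mouse. In WSB, the sum over 8 oligodendrocyte genes was 506 to 713 FPKM, below the 906 to 1124 FPKM of B6 and the 858 to 1148 FPKM of C3H. The sum over 8 microglia genes was likewise lowest in WSB, at 166 to 179 FPKM, with 218 to 228 FPKM in B6 and 193 to 226 FPKM in C3H. Within these lists, 2 oligodendrocyte genes (*Cldn11* and *Mobp*) and 3 microglia genes (*C1qc*, *Csf1r* and *C1qb*) passed as lower in WSB than in B6, where 3.09% of all genes did. In this comparison all 8 oligodendrocyte genes and 6 of the 8 microglia genes were below 0, beside 49.7% of all genes. An unadjusted p from limma under 0.05 was found for 8 and 5 of them, beside 20.4% of all genes. With voom weights 6 and 3 passed, beside 7.43% of all genes. *Mog*, *C1qc* and *C1qa* passed as lower in WSB than in C3H, and *C1qb* and *C1qc* as lower in C3H than in B6. The sums over the neuron and astrocyte genes overlapped between WSB and B6. In those lists *Syt1* passed as lower in C3H than in both other strains, *Gfap* as lower and *Slc4a4* as higher in WSB than in C3H. The part of other cell types in the lower values of *Itm2a*, *Slco1a4* and *Acta2* in WSB was not tested.

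Markers of blood, choroid plexus and meninges were summed in the same way. The sum over 5 red blood cell genes was 632 to 1010 FPKM in C3H, 217 to 254 FPKM in B6 and 249 to 329 FPKM in WSB. In C3H, *Hba-a1*, *Alas2* and *Hbb-bs* passed as higher than in B6 and than in WSB. *Hba-a2* did not pass between C3H (1.37, 78.1 and 82.2 FPKM) and B6 (9.96, 15.3 and 12.3 FPKM). *Hbb-bt* did not pass either, with 5.27, 2.20 and 69.3 FPKM in C3H and 23.4, 23.5 and 27.8 FPKM in B6. The part of blood in the calls of *Eng* and *Mfsd2a*, which were also higher in C3H than in B6, was not tested. In WSB against B6, *Hba-a1* passed as higher and *Hbb-bt* as lower. The sum over 10 choroid plexus genes was 66.3 and 68.2 FPKM in B6 replicates 3 and 1 and 773 FPKM in B6 replicate 2, 93.3 to 665 FPKM in C3H, and 472 to 612 FPKM in WSB. Values of B6 replicate 2 were 26.4 FPKM for *Itm2a*, 3.32 FPKM for *Slco1a4* and 3.28 FPKM for *Acta2*. A single mouse cannot show what choroid plexus adds to these values. The sum over 11 genes of fibroblasts of the meninges and vessel walls overlapped between the strains (31.0 to 40.3 FPKM in B6, 30.2 to 42.1 FPKM in C3H and 24.1 to 44.3 FPKM in WSB). WSB replicates 2 and 3, at 24.1 and 25.7 FPKM, lay below every B6 and C3H mouse. In WSB 10 of the 11 were below 0 against B6 (median log2 fold change -0.32) and 8 against C3H (-0.45). Over all genes 49.7% and 48.9% were. None of the 11 passed, and 0 and 4 had an unadjusted p from limma under 0.05, beside 20.4% and 23.8% of all genes. Whether blood was flushed from the vessels before the cortex was taken is not given in the sources used here. The part of blood, choroid plexus or fibroblasts in the values of the 36 genes was not tested.

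**Figure D4:**
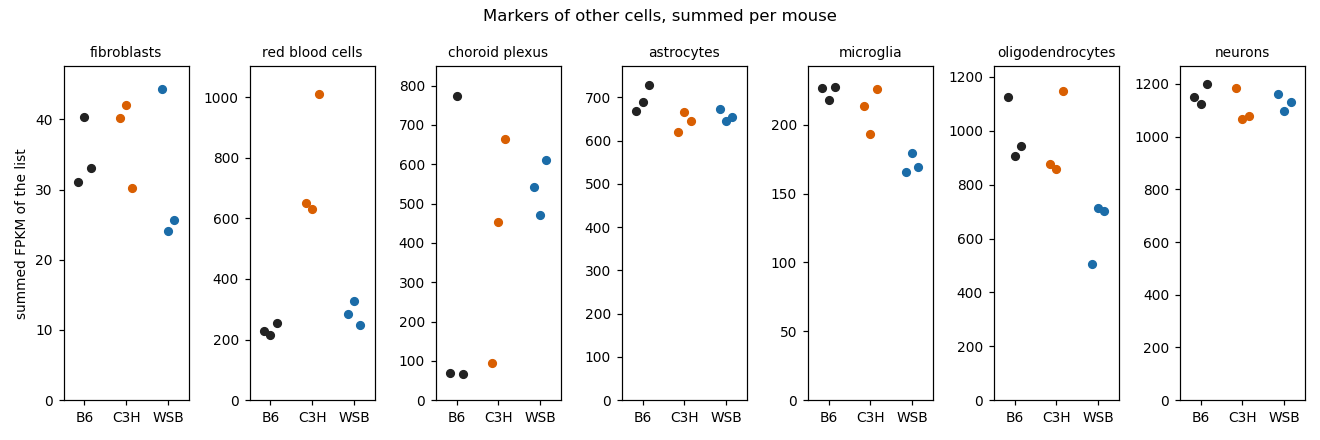
Summed FPKM of the marker genes of 7 other cell types in each mouse, by strain, on axes that start at 0. The red blood cell sum was highest in C3H, the oligodendrocyte and microglia sums were lowest in WSB, and the choroid plexus sum ranged from 66.3 to 773 FPKM within B6.

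Other genes of the same vessel pathways, 118 in 7 lists, were tested in the same fits. In the Wnt and Norrin pathway, which induces and keeps barrier properties, 1 of 18 genes passed in each comparison with B6, and it was *Plvap*, which encodes the diaphragm protein of fenestrated capillaries and which barrier endothelium keeps low. *Plvap* had 3.79, 3.71 and 4.84 FPKM in B6, 11.3, 11.8 and 11.7 FPKM in C3H, and 7.78, 8.23 and 6.53 FPKM in WSB. The 3 strains did not overlap, with C3H highest. It rose by 1.48 ± 0.12 on the log2 scale in C3H against B6 (limma adjusted p = 0.000438) and by 0.86 ± 0.14 in WSB against B6 (limma adjusted p = 0.0127). The call in C3H held without any 1 mouse, and that in WSB held in 4 of 6 such fits. The choroid plexus, whose capillaries are fenestrated, had the summed marker levels given above, and its part in the *Plvap* values was not tested.

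Of the 13 genes of VEGF, angiopoietin, PDGF and TGF-beta signalling, *Pdgfb*, the endothelial ligand of *Pdgfrb*, was lower in C3H than in B6 (6.38 ± 0.627 against 9.02 ± 0.449 FPKM, SD, n = 3 each). Its log2 fold change was -0.50 ± 0.10 (limma adjusted p = 0.0367), and the call held in 1 of the 6 fits without 1 mouse. *Vegfa*, the main growth factor of endothelium, was higher in WSB than in C3H (16.2 ± 1.82 against 10.7 ± 0.372 FPKM; limma adjusted p = 0.0154), and it held in 4 of 6. None of 7 Notch genes and none of 24 other mural cell genes passed in any comparison of limma. In WSB against B6 an unadjusted p under 0.05 was found for 2 of the Notch genes and 4 of the mural genes, in C3H against B6 for 0 and 3, and in WSB against C3H for 3 and 2, where the shares over all genes were 20.4%, 24.1% and 23.8%. With voom weights 1 of the 24 mural genes passed in each comparison, where 7.43%, 7.22% and 8.53% of all genes did. These were the endothelin receptor gene *Ednra*, higher in WSB than in B6 (limma adjusted p = 0.0215), the aminopeptidase gene *Enpep*, lower in C3H than in B6 (limma adjusted p = 0.0389), and the desmin gene *Des*, lower in WSB than in C3H (limma adjusted p = 0.0408). For those 24 the median log2 fold change was -0.04 in WSB against B6, 0.13 in C3H against B6 and -0.09 in WSB against C3H.

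Of 25 other endothelial genes, 1 was called in WSB against B6, the Ly6 family gene *Ly6c1*, a surface marker of mouse brain endothelium. It had 0 reads in all 3 WSB mice, 316 to 387 reads in B6 (10.8 FPKM on average) and 389 to 566 in C3H (14.2 FPKM). With 3 reads per library as the limit that a count of 0 allows, the WSB value was at least 104-fold below B6. That limit covers counting error only. Whether reads from the WSB sequence of *Ly6c1* align to the reference genome was not tested, so the fold is one of counted reads. *Ly6a*, of the same family, was lower in C3H than in B6 (3.42 ± 0.307 against 9.27 ± 0.886 FPKM; log2 fold change -1.41 ± 0.11, limma adjusted p = 0.000438) and higher in WSB than in C3H (1.41 ± 0.16, limma adjusted p = 0.00349), and both calls held without any 1 mouse. The other endothelial genes had a median log2 fold change of -0.12 in WSB against B6 and of 0.01 in C3H against B6.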

How the data were processed

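Cortex RNA of 9 mice was read from 1 deposited table of FPKM values with 1 column per mouse, and 0 value columns were left unused. The authors trimmed paired-end reads with Cutadapt and counted them on genes with HTSeq. The submitters' processing notes also name STAR and DESeq2, and versions, genome build and strand setting are not given in the sources used here. FPKM values times the deposited gene length were whole multiples of 1 step per library (within 0.01 of a read for 100% of values), which returned the reads. Of 54532 identifiers, 54409 were in GENCODE M21 and 53499 had its GRCm38 coordinates.

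Strains came from the sample labels, and mice are the replicates. Each pair of strains was compared with limma 3.58.1 in R 4.3.3 in two-sided tests with trended eBayes. Values were log2(FPKM + 0.1), and genes averaging under 0.1 FPKM across the 6 mice were left out. Benjamini-Hochberg adjustment ran over all genes tested, with a threshold of 0.05. This takes the place of the study's count model, since the unit is FPKM, and it understates changes of low genes. Counting error alone sets the limit of 3 reads for a count of 0. How well reads of WSB and C3H align to the reference genome was not tested.

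Every member gene was named, and of the other lists those that passed, at most the 4 smallest adjusted p per list and comparison, except 1 gene that is not reported here. The genes and lists were chosen with earlier results of these data known. Further settings were a pseudocount of 0.01 or 1, filtering at 1 FPKM or not at all, rescaling by median of ratios or total reads, 1 fit of all 9 mice, eBayes without a trend, voom weights on recovered reads, a replicate block, removal of the GC trend, and leaving out each mouse. Similar transcripts were searched with blastn 2.17.0 (E value at most 1e-20). Windows before gene starts came from RefSeq (GRCm38.p6). Figures were drawn with matplotlib 3.10.9.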

Additional observations from a re-analysis of the deposited data

Results flagged for a closer look

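For 3 of the 36 genes, the difference of WSB from B6 and that of C3H from B6 were not alike, since the direct test of WSB against C3H is the test of the difference between them (limma with Benjamini-Hochberg adjustment over all genes). *Itm2a* gave -0.73 on the log2 scale for WSB minus C3H, from -0.53 in WSB and 0.20 in C3H against B6. *Rgs5* gave 0.72, from 0.33 and -0.40. *Slco1a4* gave -0.61, from -0.60 and 0.01.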

How the results depend on the processing

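The count of genes called among the 36 depended on the setting, and the cause was not tested. In WSB against B6 it was 3, and it was 1 with no filter, 1 with eBayes without a trend, 7 once the GC trend was removed, 5 with voom weights, and 1 to 3 with 1 mouse left out. In C3H against B6 it was 3, and it was 1 with no filter, 0 with eBayes without a trend, and 0 to 3 with 1 mouse left out. In WSB against C3H it was 3, and it was 1 with eBayes without a trend and 1 to 2 with 1 mouse left out. The fits with a mouse left out have fewer samples. The median log2 fold change over the 36 genes ranged with 1 mouse left out from -0.20 to -0.078 in WSB against B6, from -0.058 to 0.036 in C3H against B6 and from -0.23 to -0.078 in WSB against C3H. Removing the GC trend moved the median in C3H against B6 from -0.0057 to -0.069. With a replicate block, 1, 0 and 2 genes were called in the 3 comparisons. Correlations of same-numbered mice ran from -0.06 to 0.05, so the numbers do not pair the mice. No called gene changed sign in any setting. Among values that were not called, the GC trend removal changed the sign of 1, 10 and 3 genes in the 3 comparisons. All genes called rose from 956 to 2301 for C3H against B6, and from 1182 to 2002 for WSB against C3H, without C3H replicate 2. Depth limits *Tagln* and *Foxq1* most, with 1 and 12 reads in the lowest mouse.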

Other observations

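Among the other transporters and the basement membrane, lists of 17 and 14 genes, a few genes passed. In WSB against B6, C3H against B6 and WSB against C3H, 4, 8 and 9 of the 17 had an unadjusted p from limma under 0.05. For the 14 these counts were 3, 2 and 5, and the shares over all genes were 20.4%, 24.1% and 23.8%. With voom weights 0, 4 and 7 of the 17 passed, and 1, 1 and 2 of the 14. Of all genes 7.43%, 7.22% and 8.53% did. *Slc38a3*, a glutamine transporter gene that astrocytes and neurons also use, was higher in C3H (17.1 ± 2.06 FPKM, SD, n = 3) than in B6 (11.6 ± 1.05 FPKM; limma adjusted p = 0.0367) or WSB (12.1 ± 0.431 FPKM; limma adjusted p = 0.0367). The zinc transporter gene *Slc39a10* was higher in WSB (34.8 ± 4.77 FPKM) than in C3H (21.4 ± 3.80 FPKM; limma adjusted p = 0.0436).

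*Col4a2*, a chain of type IV collagen and a main part of the vascular basement membrane, was higher in WSB (10.3, 10.5 and 9.30 FPKM) than in B6 (7.43, 7.00 and 6.07 FPKM), with no overlap (log2 fold change 0.55 ± 0.10, limma adjusted p = 0.0215). The call held in 2 of the 6 fits that leave out 1 mouse. In the Wnt and Norrin list, *Tspan12*, a partner of the receptor Frizzled-4, was higher in WSB (5.53 ± 0.329 FPKM) than in C3H (3.73 ± 0.512 FPKM; limma adjusted p = 0.0422). With 1 mouse left out, the calls of *Slc38a3* (in each comparison) and *Tspan12* held in 1 of 6 fits and that of *Slc39a10* in 2.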
